A study of Mus musculus with 33 samples.

Results

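Mouse retinal progenitor cells were followed over the first 5 days of a culture meant to yield rods, the dim-light photoreceptors. The comparison rests on 6 of the 33 RNA libraries of the series, chosen by their titles: the 3 rod primed libraries of day 0 and the 3 rod induction libraries of day 5. The progenitors came from retina of C57BL/6J mice at embryonic day 14, and both groups are labelled as treated with taurine and retinoic acid. Day 0 is therefore not an untreated state, and the labels do not say how long the cells had been exposed or whether the factors stayed in the medium to day 5. For reference, levels are also given in untreated cells of day 0, in rod induction cultures of days 12, 21 and 35, and in cells primed (day 0) or induced (day 5) towards cones with COCO protein, each with 3 libraries. The labels do not say whether libraries of a group came from separate cultures or animals, so p-values measure only the spread between libraries. That spread was estimated over all 33 libraries together, later days and cone cultures included. Its common coefficient of variation was 0.213, against 0.139 within the rod primed and 0.159 within the rod day 5 libraries. A gene not called may thus reflect spread in libraries outside the 6 compared.

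Retinoic acid enters cells, binds nuclear receptors of the RAR and RXR families and switches on genes that include its own receptor Rarb and enzymes that break it down, the Cyp26 family. Taurine is an amino acid that promotes rod formation in explanted rodent retina. Progenitors keep dividing under eye field factors such as Pax6 and Rax and under Notch signalling. Cells that leave the cycle pass through a phase marked by neurogenic factors such as Atoh7 and Neurog2, and those becoming photoreceptors switch on Otx2 and Crx. Nrl and Nr2e3 then direct the rod course, which ends with the proteins of rod phototransduction.

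Levels are given as CPM, counts scaled to a library total of 1000000, listed in the order of replicates 1, 2 and 3. A gene was called at an adjusted p under 0.05 in edgeR's quasi-likelihood test, and each log2 fold change (day 5 over primed) carries its standard error. Gene counts per library ran from 7575026 to 12242569, and a count of 0 leaves room for up to 3 counts, which is 0.208 to 0.407 CPM in these libraries. RNA over ribosomal RNA sequence took 22.2% to 28.0% of gene counts in the primed libraries and 8.03% to 18.5% at day 5, and mitochondrial genes took 10.3% to 11.5% and 11.4% to 17.0%. Day 5 replicate 2 had the lowest ribosomal and the highest mitochondrial share, and the part of these shares in the results was not tested beyond the fit without those genes. The authors' deposited TPM (transcripts scaled to the same total) differed from the counts in how reads were shared out. In them 2 loci over ribosomal RNA sequence held 55.1% to 84.9% of the total. Of 8747 protein-coding genes with a mean of at least 10 CPM, 21.6% to 26.7% were listed at 0 TPM. Settings for strand are not given for the counts or the TPM, and which of them shared out reads correctly was not tested. Directions in TPM, from fits with 0.1 added, with 1 added, and with 1 added after rescaling without ribosomal RNA and mitochondrial genes, are given in that order where a printed list median turned, and a called gene's change that turned in all 3 is marked. The first principal component held 53% of the variance between the 6 libraries and separated the groups, with primed libraries from -49.7 to -43.0 and day 5 libraries from 45.1 to 50.8. The second held 17% and ranked the libraries within each group, in the primed cells from replicate 1 (31.3) to replicate 3 (-35.0) and at day 5 from replicate 2 (29.7) to replicate 1 (-34.0).

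The cells carried progenitor genes in both groups, as their label states. The 16 progenitor genes listed summed to 2183, 1999 and 2177 CPM in primed cells and 1719, 1768 and 1750 CPM at day 5, lower at day 5 without overlap. Pax6, a factor needed for the multipotent state and also expressed in inner retinal neurons, stood at 341, 368 and 434 CPM and then at 350, 377 and 418 CPM. Its groups overlapped, and it did not pass the test (log2 fold change 0.00 ± 0.14, adjusted p 0.997).

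Between the groups 3185 of the 18150 genes tested (17.5%) were called. Of these 1590 (8.76%) were higher at day 5 and 1595 (8.79%) lower, and 841 rises and 433 falls were at least 2-fold. The median log2 fold change of all genes was 0.05. The libraries of the groups did not overlap for 39.8% of genes. The 8.76% and 8.79% are the shares to set beside each list count below. In bulk RNA, fewer cells of a type and less RNA per cell cannot be told apart, which holds for every result here. The lists with the largest share of members called lower were those of histone, ribosomal protein and sterol synthesis genes, and the largest shares called higher were those of immediate early, Muller glia, BMP response and astrocyte genes.

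**Figure D1:**
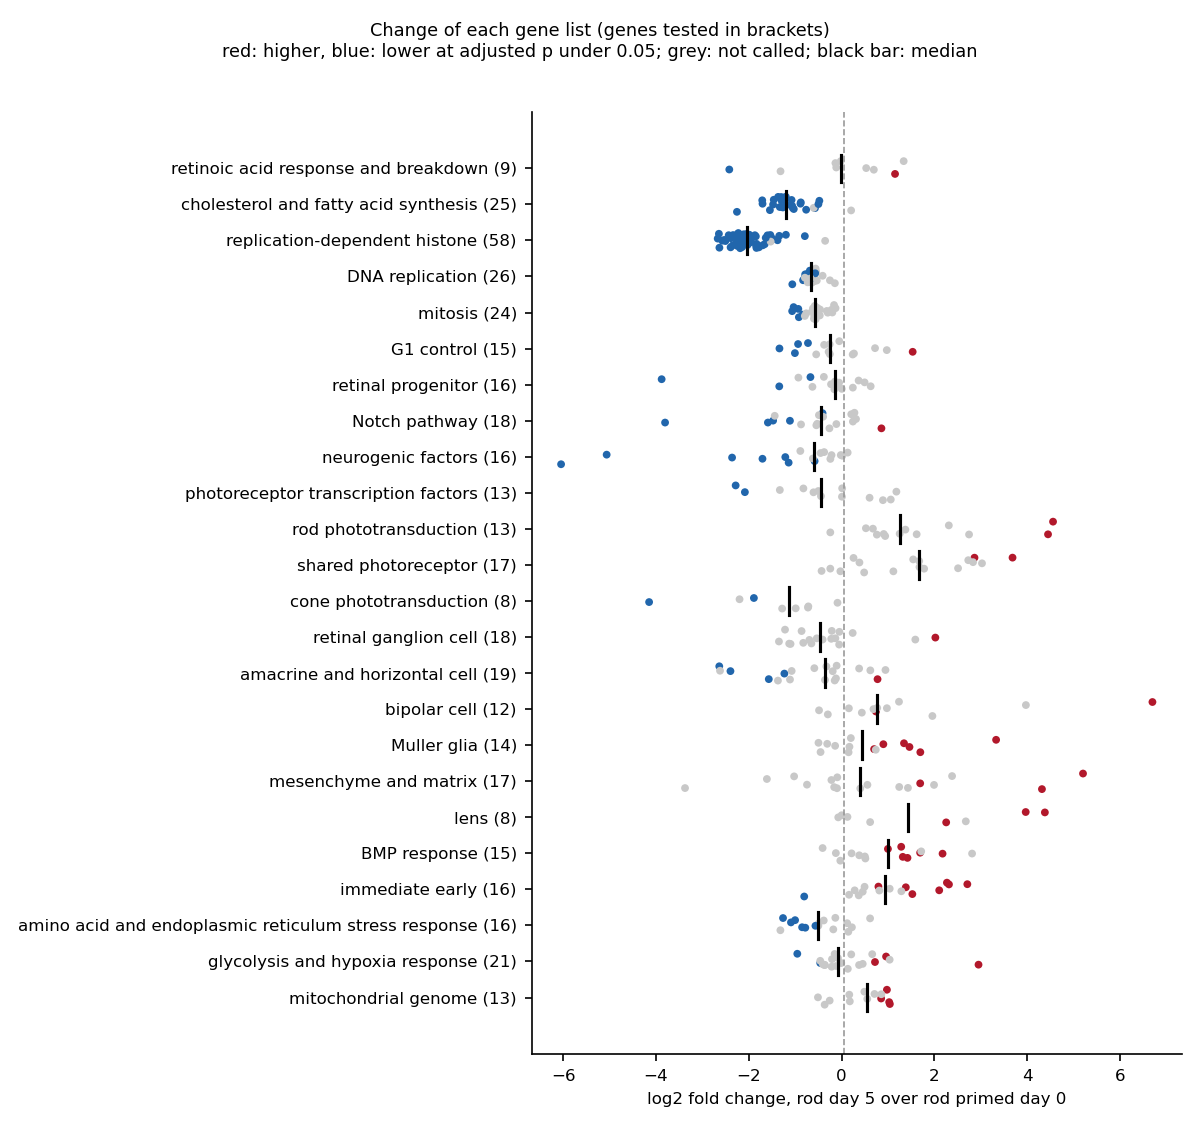
Log2 fold change from rod primed day 0 to rod day 5 (horizontal axis) of the tested genes of 24 lists, from counts, with each point a gene, the black bar the list's median and the dashed line the median of all genes (0.05). Of 25 sterol and fatty acid genes 23 are blue (called lower), and of 58 histone genes 56.

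Retinoic acid response genes stood high already in primed cells, and most of them did not pass the test between day 0 and day 5. Rarb, the receptor gene that retinoic acid induces directly, stood at 93.7, 105 and 93.6 CPM in primed cells and at 108, 87.8 and 92.8 CPM at day 5. The groups overlapped (log2 fold change -0.02 ± 0.20, adjusted p 0.967), while untreated cells held 0.613 ± 0.358 CPM (SD, n = 3). Cyp26a1, which degrades retinoic acid, stood at 230, 251 and 285 CPM and then at 373, 411 and 321 CPM. All day 5 libraries lay above all primed ones, yet the change did not pass (0.53 ± 0.35, adjusted p 0.305). Cyp26b1, a second degrading enzyme, likewise went from 59.3, 41.8 and 83.2 CPM to 184, 105 and 176 CPM without overlap and without passing (1.34 ± 0.53, adjusted p 0.0821). Cyp26a1 and Cyp26b1 were called only in the fit of the 6 libraries alone and with voom quality weights among the count-based alternatives.

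Dhrs3, a reductase that turns retinal back into retinol, was the member that rose. Its level was 53.6, 39.9 and 59.4 CPM in primed cells and 119, 93.5 and 127 CPM at day 5, with no overlap (1.15 ± 0.28, adjusted p 0.00543). Crabp2, which carries retinoic acid to the nucleus, fell from 2.17, 1.31 and 5.30 CPM to 0.674, 0.357 and 0.625 CPM (-2.42 ± 0.61, adjusted p 0.00719). Its highest level was in primed replicate 3, and without that library the call was lost (-1.65, adjusted p 0.102). Stra6, the receptor that takes up retinol, stood at 3.93, 2.72 and 3.68 CPM and then at 1.46, 1.14 and 1.53 CPM, just outside the threshold (-1.32 ± 0.48, adjusted p 0.0592). In all, 1 of the 9 tested response genes was higher (Dhrs3) and 1 lower (Crabp2), with a median of -0.02 (1.29, 0.81 and 0.74 in TPM). Without primed replicate 3 the median was 0.33 and 0 were lower. Of 12 genes for synthesis, receptors and binding proteins 1 was higher and 2 lower, the rise being lost without any 1 of the 6 libraries. Cdx1, a response gene of the body axis, had 0 counts in all 6 libraries.

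The bases before the Cyp26a1 start are shown because they hold a pair of retinoic acid receptor sites. Motifs were searched on both strands in the 250 bases before each start in the RefSeq promoter table (build GRCm38.p6), and 7 of the 11 response genes matched that table by symbol. AGGTCA or AGTTCA repeated in the same direction with 5 bases between was found in 0.0335% of all 32851 promoters and, among the response genes, in that of Cyp26a1. It lies 32 bases before the start on the minus strand, so that its reverse complement is printed in capitals in chr19:37697558-37697807 (plus strand):
Cyp26a1: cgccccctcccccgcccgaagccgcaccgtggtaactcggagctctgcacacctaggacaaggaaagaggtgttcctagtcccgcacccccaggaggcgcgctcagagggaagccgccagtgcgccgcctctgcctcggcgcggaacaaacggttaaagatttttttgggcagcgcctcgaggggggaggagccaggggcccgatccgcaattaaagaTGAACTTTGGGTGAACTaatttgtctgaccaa

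**Figure D2:**
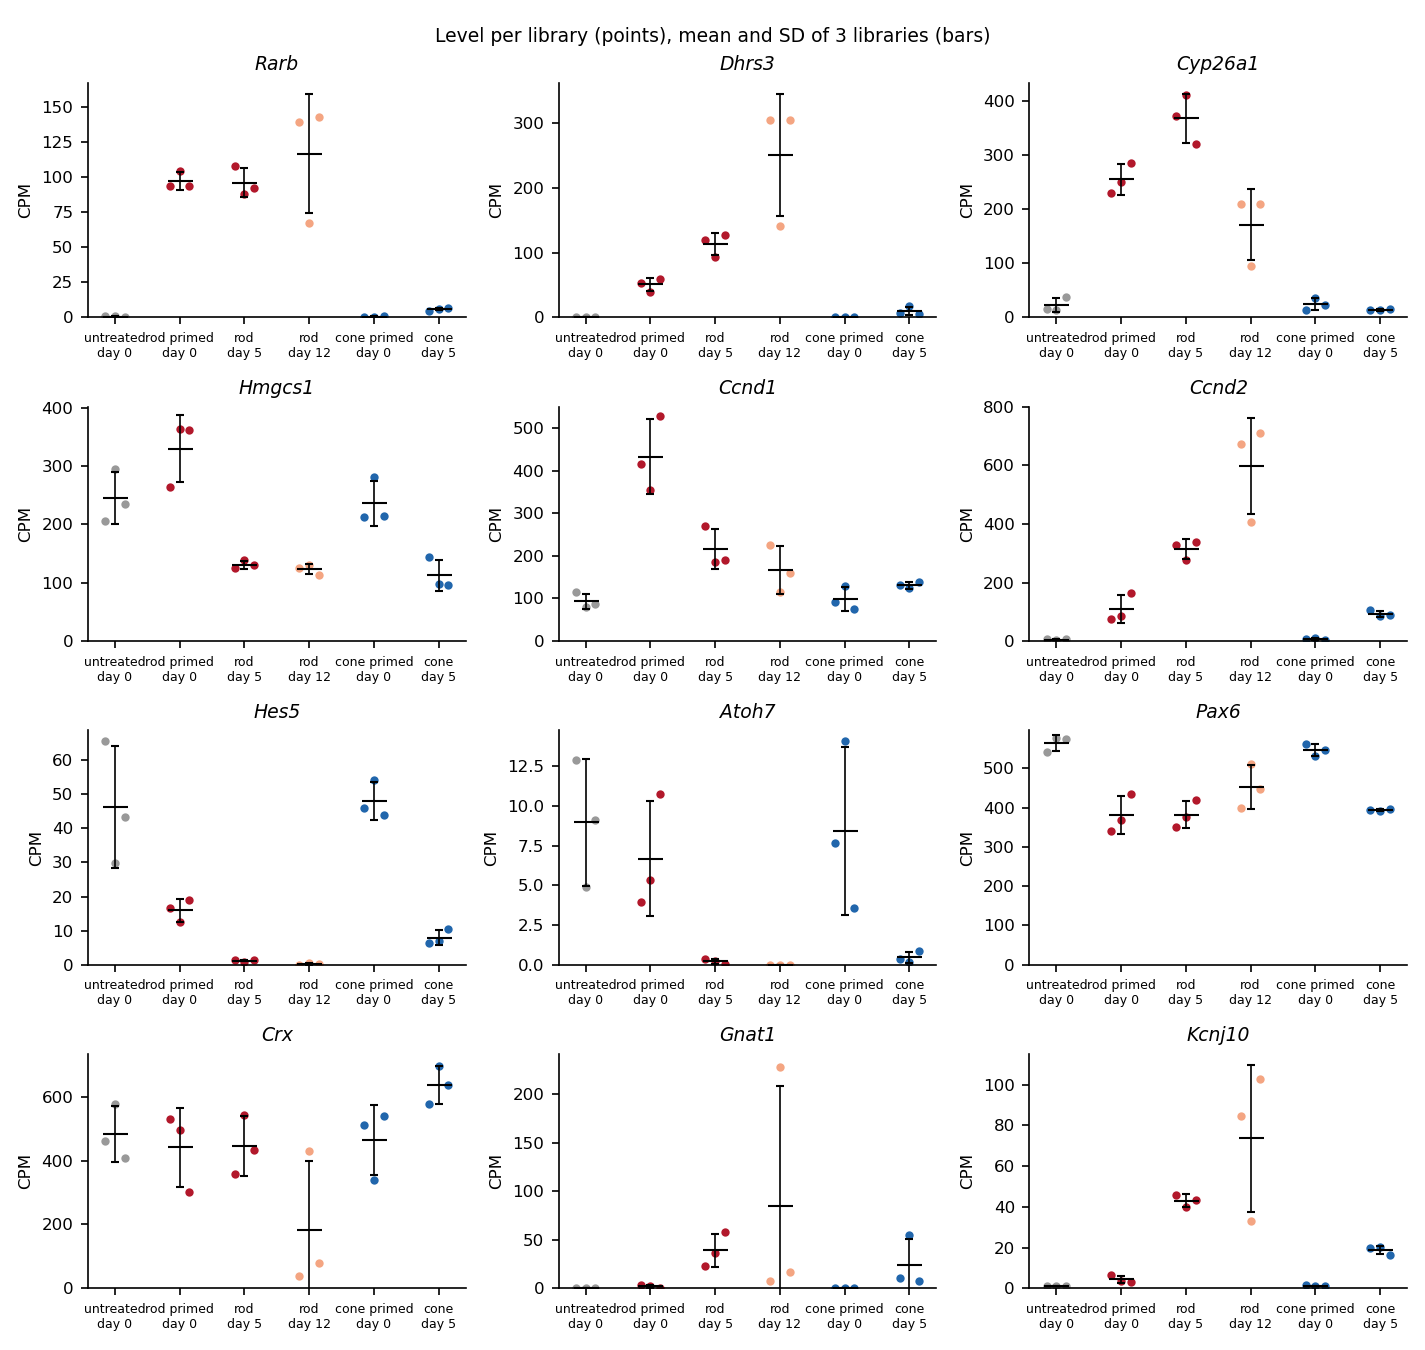
CPM (vertical axis, linear, from 0) of 12 genes in each library of 6 groups, with the mean and SD of 3 libraries. Rarb, Dhrs3 and Cyp26a1 are high in rod primed cells already, Hmgcs1, Ccnd1 and Hes5 are lower at day 5 than in rod primed cells, and Gnat1 and Kcnj10 are higher.

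Genes of sterol and fatty acid synthesis formed the list with the most uniform fall among those of metabolism. Of its 25 genes 23 were called lower and 0 higher, against 8.79% and 8.76% of all genes, and the median was -1.19. Leaving out any 1 of the 6 libraries kept 22 or 23 genes called lower. In the 3 fits to TPM 0, 0 and 2 were called lower and 1, 1 and 0 higher, with medians of -0.37, -0.09 and -0.69. The summed level was 3361, 3815 and 3665 CPM in primed cells and 1792, 1771 and 1894 CPM at day 5, with untreated cells at a mean of 2526 CPM. Primed cells thus stood above, and day 5 cells below, the untreated mean. Cone primed cells held a mean of 2423 CPM and cone day 5 cells 1897 CPM.

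Scd1, which introduces the double bond of oleic acid, went from 39.9, 59.95 and 53.1 CPM to 9.88, 12.2 and 9.86 CPM (-2.26 ± 0.34, adjusted p 5.65e-05). Untreated cells held 8.98 ± 3.03 CPM, close to the level of day 5. Idi1, an enzyme of the isoprenoid branch, fell from 37.0, 54.8 and 52.8 CPM to 14.0, 14.3 and 15.8 CPM (-1.71 ± 0.18, adjusted p 6.25e-07). Its groups did not overlap, and neither did those of Scd1. Insig1, the sensor that holds the sterol pathway in check, fell by 1.46 on the log2 scale (SE 0.12, adjusted p 1.26e-08). Hmgcs1, an early enzyme of the sterol pathway, went from 264, 364 and 361 CPM to 124, 138 and 130 CPM (-1.33 ± 0.17, adjusted p 5.14e-06), and Sqle, the squalene oxidising enzyme, changed by -1.27 ± 0.14 (adjusted p 6.90e-07; positive in TPM). Named after their values were seen, Acaca, the first enzyme of fatty acid synthesis, and Fdps, an isoprenoid enzyme, were the 2 members not called, with log2 fold changes of 0.20 and -0.60.

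The promoter of Hmgcs1 is shown because it was the only one of those matched (15 of the 25 genes) with the sterol regulatory element letters TCACNCCAC, a motif chosen after the fall was known. The element was found in 1.05% of all promoters and lies 137 bases before the Hmgcs1 start, in capitals in chr13:119690101-119690350 (plus strand):
Hmgcs1: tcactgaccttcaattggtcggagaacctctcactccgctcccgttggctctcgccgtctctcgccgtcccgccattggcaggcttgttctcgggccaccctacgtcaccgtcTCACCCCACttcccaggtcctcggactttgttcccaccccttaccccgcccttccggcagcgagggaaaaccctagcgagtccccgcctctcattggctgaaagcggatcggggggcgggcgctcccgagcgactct

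Histone genes of the replication-dependent clusters, which are transcribed as DNA is copied and whose mRNA lacks a poly(A) tail, fell almost throughout. Of 58 tested, 56 were called lower and 0 higher, with a median of -2.04, and all 58 changes were negative. In the 3 fits to TPM 6, 18 and 10 were called lower, with medians of -1.60, -1.28 and -2.01. Their summed level was 3236, 3204 and 3783 CPM in primed cells and 1246, 964 and 991 CPM at day 5. Hist1h4h, a histone H4 gene, went from 46.4, 47.5 and 63.8 CPM to 9.21, 7.29 and 8.96 CPM (-2.63 ± 0.29, adjusted p 9.93e-07), and Hist1h3f, a histone H3 gene, from 23.5, 23.5 and 24.5 CPM to 5.95, 3.43 and 3.19 CPM (-2.53 ± 0.36, adjusted p 2.68e-05). In neither case did the groups overlap. Of the 12 largest falls named by rule, 7 were histone genes: Hist1h3g, Hist1h3h, Hist1h4h, Hist1h3f, Hist1h4k, Hist1h4j and Hist1h4c. These genes have near-identical copies, and how shared reads were assigned is not given in the sources used here, so the values of single copies are uncertain.

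Cytoplasmic ribosomal protein genes fell as well, with 76 of 79 called lower, 0 higher and a median of -0.98. In the 3 fits to TPM 2, 2 and 4 were called lower, with medians of -0.17, -0.15 and -0.63. Their summed level was 11150, 11320 and 12870 CPM and then 6948, 5375 and 5988 CPM. Rplp0, which builds the stalk of the large subunit, went from 309, 295 and 334 CPM to 153, 104 and 130 CPM (-1.28 ± 0.16, adjusted p 4.47e-06). Small nucleolar RNAs, which guide the modification of ribosomal RNA, were called lower in 45 of 117 cases and higher in 0 (median -1.06). Snord15a went from 59.5, 35.8 and 45.2 CPM to 8.87, 7.58 and 4.51 CPM (-2.76 ± 0.41, adjusted p 4.40e-05) and Snord87 from 19.9, 8.36 and 18.1 CPM to 3.15, 1.93 and 2.57 CPM (-2.61 ± 0.43, adjusted p 1.47e-04). Loci annotated as unconfirmed (TEC) or sense intronic, which lie within introns or outside known exons, moved the other way, with 170 of 1365 called higher and 4 lower (median 0.73). The rises numbered 71, 86 and 91 without primed replicate 1, 2 or 3 and 64 without day 5 replicate 2. The histone, ribosomal protein and small RNA lists and that of intronic loci were drawn up after values had been seen. The share of counts over ribosomal RNA sequence fell beside them, and its part in them was not tested beyond the fit without those genes, in which 55 histone and 76 ribosomal protein genes were called lower.

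**Figure D3:**
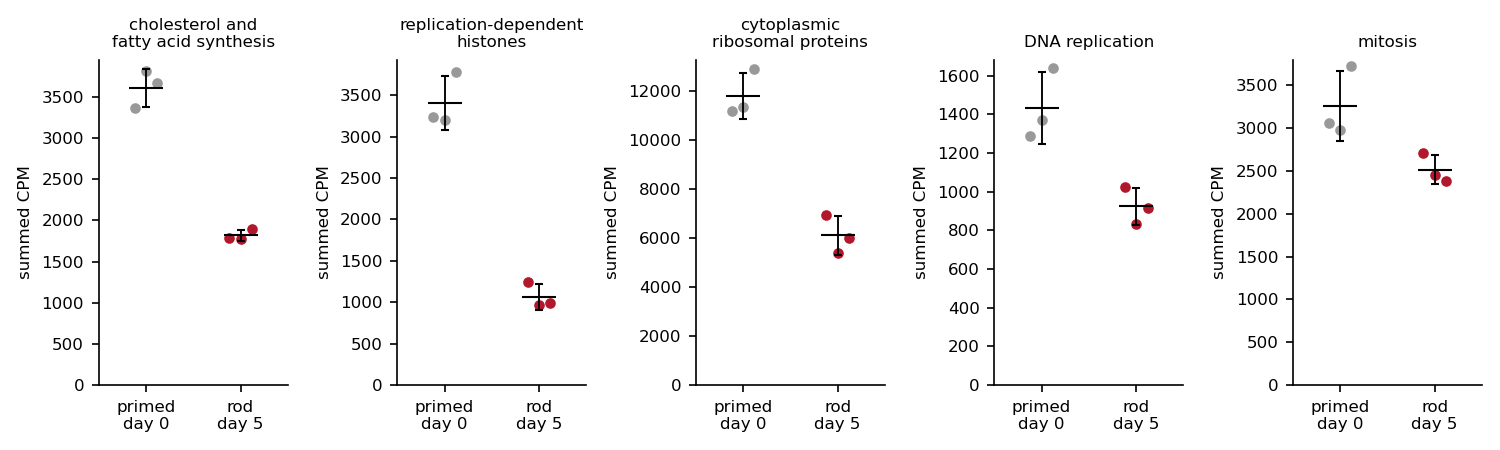
Summed CPM (vertical axis, from 0) of 5 gene lists in each of the 3 rod primed and 3 rod day 5 libraries, with mean and SD. The groups do not overlap in any panel, and histone genes go from 3204 to 3783 CPM in primed cells to 964 to 1246 CPM at day 5. In TPM the DNA replication and mitosis medians were above 0.

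The cell cycle machinery shifted down by a smaller amount. All 26 DNA replication genes tested had negative changes, and 10 were called lower, with a median of -0.65 (0.56, 0.14 and 0.08 in the 3 fits to TPM). All 24 mitosis genes likewise had negative changes, and 5 were called lower, with a median of -0.57 (0.45, 0.31 and 0.09 in TPM). The 10 and 5 were 38.5% and 20.8% of their lists, against 8.79% of all genes. The fit of the 6 libraries alone called 21 and 16 lower, and voom 19 and 14. Leaving out 1 library moved the counts from 10 to between 1 and 9, and from 5 to between 1 and 5. Without primed replicate 3 the counts were 1 and 2, and without day 5 replicate 2 both were 1. Without primed replicate 2 they were 5 and 3, without day 5 replicate 3 they were 3 and 2, and 2 mitosis genes were called without primed replicate 1.

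Mki67, the proliferation antigen Ki-67, stood at 940, 896 and 1131 CPM in primed cells and 889, 843 and 814 CPM at day 5 and did not pass (-0.22 ± 0.29, adjusted p 0.647). Top2a, the topoisomerase that untangles chromosomes, stood at 529, 517 and 673 CPM and then 446, 379 and 381 CPM (-0.51 ± 0.28, adjusted p 0.210). Mcm5, a subunit of the replicative helicase, stood at 36.9, 43.4 and 52.6 CPM and then 34.6, 24.1 and 28.2 CPM (-0.62 ± 0.22, adjusted p 0.0536). In none of the 3 did the groups overlap. Ube2c, which drives cyclin destruction at anaphase, was called, with 31.9, 34.0 and 40.5 CPM before and 20.3, 14.5 and 16.2 CPM after (-1.07 ± 0.27, adjusted p 0.00805). Cdc20, the activator of the same ligase complex, went from 32.8, 25.8 and 31.2 CPM to 16.3, 11.7 and 15.9 CPM (-1.03 ± 0.29, adjusted p 0.0144), and its call was lost without primed replicate 1 (adjusted p 0.0512) or day 5 replicate 2 (adjusted p 0.0849).

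The regulators of G1, the phase before DNA synthesis, split. Ccnd1, the cyclin D that progenitors of the retina use most, fell from 416, 354 and 528 CPM to 269, 186 and 191 CPM (-1.01 ± 0.23, adjusted p 0.00312), though its change was positive in TPM. Ccnd2, another D cyclin, rose from 75.4, 86.7 and 163 CPM to 327, 276 and 340 CPM (1.53 ± 0.33, adjusted p 0.00171). The groups did not overlap for either cyclin. Untreated cells held 93.7 CPM of Ccnd1 and 4.97 ± 2.40 CPM of Ccnd2, so both stood above the untreated level in primed and day 5 cells. Cdk4, the kinase both cyclins bind, fell from 99.7, 103 and 112 CPM to 62.7, 44.5 and 56.8 CPM (-0.94 ± 0.15, adjusted p 9.65e-05). Cdkn1c, a cycle inhibitor of differentiating cells, was called lower (-1.34 ± 0.32, adjusted p 0.00514), but primed replicate 3 stood at 222 CPM against 77.2 and 79.5 CPM in the other two. Without it the call was lost (-0.65, adjusted p 0.136). Cdkn1a, the p53-responsive inhibitor, overlapped between the groups (-0.55 ± 0.40, adjusted p 0.361). Of 15 G1 genes 1 was higher and 4 lower (median -0.26, or 0.47, 0.29 and 0.13 in TPM), with 2 lower without primed replicate 3 and 2 higher without primed replicate 1 or day 5 replicate 1 or 3.

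The promoters of Ube2c and Cdc20 are shown because both were among the 5 mitosis genes called lower and both hold the CHR element TTTGAA and the CCAAT box, searched as ATTGG, which stand together in many promoters of G2 and mitosis genes. The CCAAT box was found in 90.5% of the 21 promoters matched to 20 of the 24 mitosis genes and in 33.8% of all promoters. The CHR element was found in 38.1% and 16.0%. Capitals mark both motifs on either strand, in chr2:164769679-164769928 (plus strand) and chr4:118437344-118437593 (minus strand, printed in the direction of transcription):
Ube2c: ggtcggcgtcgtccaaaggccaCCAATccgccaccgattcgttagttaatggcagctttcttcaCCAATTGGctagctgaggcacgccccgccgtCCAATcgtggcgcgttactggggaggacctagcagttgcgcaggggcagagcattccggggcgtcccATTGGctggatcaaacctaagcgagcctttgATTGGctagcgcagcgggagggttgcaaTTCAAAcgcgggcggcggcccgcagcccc
Cdc20: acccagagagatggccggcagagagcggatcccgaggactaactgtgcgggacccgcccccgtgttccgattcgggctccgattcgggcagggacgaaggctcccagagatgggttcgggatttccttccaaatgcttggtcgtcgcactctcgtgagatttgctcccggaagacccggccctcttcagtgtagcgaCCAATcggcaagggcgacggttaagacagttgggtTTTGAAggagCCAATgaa

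Genes of the step from progenitor to neuron fell. Of 16 neurogenic factors 7 were called lower and 0 higher, with a median of -0.60 (0.17, 0.18 and -0.09 in TPM). Atoh7, needed for ganglion cells and the first neurogenic wave, went from 3.93, 5.34 and 10.8 CPM to 0.337, 0.214 and 0.0694 CPM, that is, to 3, 3 and 1 counts (-5.06 ± 0.81, adjusted p 4.40e-04). Ptf1a, which directs amacrine and horizontal fates, had 19, 17 and 33 counts in primed libraries and 0, 1 and 0 at day 5 (adjusted p 7.62e-04). Foxn4, upstream of Ptf1a, fell from 28.1, 19.9 and 27.0 CPM to 4.61, 5.50 and 4.44 CPM (-2.36 ± 0.45, adjusted p 0.00109). None of these overlapped.

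The others called were Olig2 (-1.71 ± 0.40), Hes6 (-1.21 ± 0.23), Sox11 (-1.14 ± 0.20) and Sox4 (-0.58 ± 0.11), the last pair being factors of newborn neurons. In TPM the change of Olig2 was positive in each fit, and those of the other three in at least 1. Neurog2, a proneural factor of progenitors about to divide for the last time, stood at 40.3, 40.1 and 37.7 CPM and then 31.0, 34.0 and 34.6 CPM (-0.24 ± 0.32, adjusted p 0.650). Neurog2 was thus not among the factors called lower.

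In the Notch pathway, by which neighbouring cells hold each other in the progenitor state, 5 of 18 genes were called lower and 1 higher, with a median of -0.45, and 3 were lower without primed replicate 3, day 5 replicate 1 or day 5 replicate 2. Hes5, a repressor switched on by Notch, showed the largest fall by the naming rule. It stood at 16.6, 12.4 and 18.9 CPM in primed cells and 1.24, 0.929 and 1.25 CPM at day 5 (-3.81 ± 0.41, adjusted p 6.90e-07), and untreated cells held 46.3 ± 18.0 CPM. Hes1, its relative, overlapped between the groups (-0.11 ± 0.21, adjusted p 0.750). The ligand Dll1 went from 48.6, 39.9 and 37.3 CPM to 18.3, 18.2 and 21.4 CPM (-1.11 ± 0.29, adjusted p 0.00804). The receptor Notch2 rose from 59.7, 55.2 and 66.1 CPM to 107, 109 and 113 CPM (0.86 ± 0.20, adjusted p 0.00370). Dll1 and Hes5 fell while Notch2 rose, in each case without overlap.

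Among 16 progenitor genes 3 were called lower (18.75%, against 8.79% of all genes) and 0 higher, and Pax6 was not among them. The median was -0.15, or -0.25 without primed replicate 2, and 0.47, 0.33 and 0.07 in TPM. Sfrp2, a secreted Wnt modulator, fell from 296, 274 and 316 CPM to 107, 124 and 118 CPM (-1.34 ± 0.33, adjusted p 0.00603). Rax, an eye field factor, fell from 140, 124 and 114 CPM to 85.2, 74.4 and 77.8 CPM (-0.67 ± 0.19, adjusted p 0.0166), with the call lost without primed replicate 1 (adjusted p 0.0744) or day 5 replicate 2 (adjusted p 0.0702). The third was the growth factor gene Fgf15, whose call was lost without primed replicate 3 (log2 fold change -2.68 against -3.88, adjusted p 0.0957) or day 5 replicate 3 (adjusted p 0.0501).

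The factors that define the photoreceptor and rod course overlapped between the groups. Otx2 stood at 371, 250 and 169 CPM in primed cells and 150, 260 and 170 CPM at day 5 (-0.45 ± 0.44, adjusted p 0.527). Crx, the photoreceptor homeobox factor it acts on, stood at 530, 495 and 301 CPM and then at 360, 545 and 432 CPM (0.01 ± 0.59, adjusted p 0.997). Nrl, the rod-determining factor, stood at 97.8, 51.4 and 17.8 CPM and then at 33.6, 76.2 and 56.5 CPM (0.01 ± 0.96, adjusted p 1.00). For these genes the spread within a group was as wide as any shift between groups. Nr2e3, the rod factor below Nrl, ran from 6.02 to 80.6 CPM in primed cells and from 24.4 to 112 CPM at day 5 (1.06 ± 1.25, adjusted p 0.602).

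Primed replicate 1 was the highest primed library and day 5 replicate 1 the lowest day 5 library for both Nrl and Crx. The 2 called among 13 such factors were both lower (15.4%, against 8.79% of all genes). Rxrg, a retinoid receptor of young cones, fell from 11.3, 11.0 and 6.64 CPM to 1.46, 1.36 and 2.99 CPM (-2.28 ± 0.49, adjusted p 0.00202), and Sall3, a factor of cones and horizontal cells, fell from 7.19, 8.66 and 7.27 CPM to 1.01, 2.00 and 2.29 CPM (-2.08 ± 0.43, adjusted p 0.00141; positive in TPM).

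Rod phototransduction genes were higher by their median (1.25 over 13 genes, 12 of them positive), but 2 were called. Those 2 were 15.4% of the list, against 8.76% of all genes called higher. Without primed replicate 3 the median was 0.83 and 0 were called. In the fit of the 6 libraries alone 5 were called higher, and with voom also 5. Gnat1, the rod transducin subunit that relays the light signal, rose from 2.98, 2.22 and 0.449 CPM to 22.9, 36.5 and 57.6 CPM (4.45 ± 1.23, adjusted p 0.0130). Slc24a1, the rod sodium, calcium and potassium exchanger, rose from 0.542, 2.02 and 0.539 CPM to 13.0, 31.7 and 29.7 CPM (4.56 ± 1.28, adjusted p 0.0146). For both the groups lay far apart without overlap, yet the Gnat1 call was lost without primed replicate 3 (adjusted p 0.0681), and that of Slc24a1 without primed replicate 1 (adjusted p 0.0608) or 3 (adjusted p 0.0685), while without primed replicate 2 its log2 fold change was 5.50. Cnga1, a rod cation channel subunit, stood at 8.00, 5.34 and 0.898 CPM and then 11.8, 42.3 and 38.1 CPM (2.75 ± 1.13, adjusted p 0.0926). Pde6b, of the rod phosphodiesterase, overlapped at 36.2, 8.77 and 3.23 CPM and then 32.4, 108 and 91.0 CPM (2.31 ± 1.23, adjusted p 0.201).

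Of 17 genes shared by rods and cones 2 were called, both higher (median 1.67). That was 11.8%, against 8.76% of all genes. The fit of the 6 libraries alone called 10 of 15 higher, and voom 7 of 17. Rdh12, a retinol dehydrogenase of photoreceptors, rose from 3.12, 1.91 and 0.898 CPM to 12.8, 32.5 and 27.8 CPM (3.68 ± 0.93, adjusted p 0.00704). Rcvrn, the calcium sensor recoverin, rose from 4.75, 2.62 and 0.808 CPM to 12.7, 23.0 and 21.2 CPM (2.86 ± 0.91, adjusted p 0.0305). The Rcvrn call was lost without primed replicate 2 (adjusted p 0.0904) or 3 (0.130), or day 5 replicate 2 (0.0820) or 3 (0.0619), and its log2 fold change was 3.49 without primed replicate 1. Cone phototransduction genes went the other way: all 8 tested had negative changes and 2 were called lower (median -1.14, against 0.59, 0.27 and 0.25 in TPM). Pde6c, of the cone phosphodiesterase, fell from 17.5, 30.8 and 19.8 CPM to 4.49, 5.79 and 7.92 CPM (-1.89 ± 0.54, adjusted p 0.0154), and its call was lost without primed replicate 2 (adjusted p 0.0759) or day 5 replicate 1 (0.0621) or 2 (0.0623). The cone channel gene Cnga3 had 6 counts in each primed library and 0, 1 and 0 at day 5 (adjusted p 0.0158, or 0.0690 without day 5 replicate 3). Opn1sw, the short-wavelength cone opsin, overlapped between the groups at 10.4, 2.62 and 1.17 CPM and then 0.337, 1.43 and 1.11 CPM (-2.20 ± 0.95, adjusted p 0.110). Gnat2, the cone transducin, stood at 15.2, 14.4 and 11.0 CPM and then 6.74, 6.43 and 7.22 CPM (-0.99 ± 0.51, adjusted p 0.188).

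**Figure D4:**
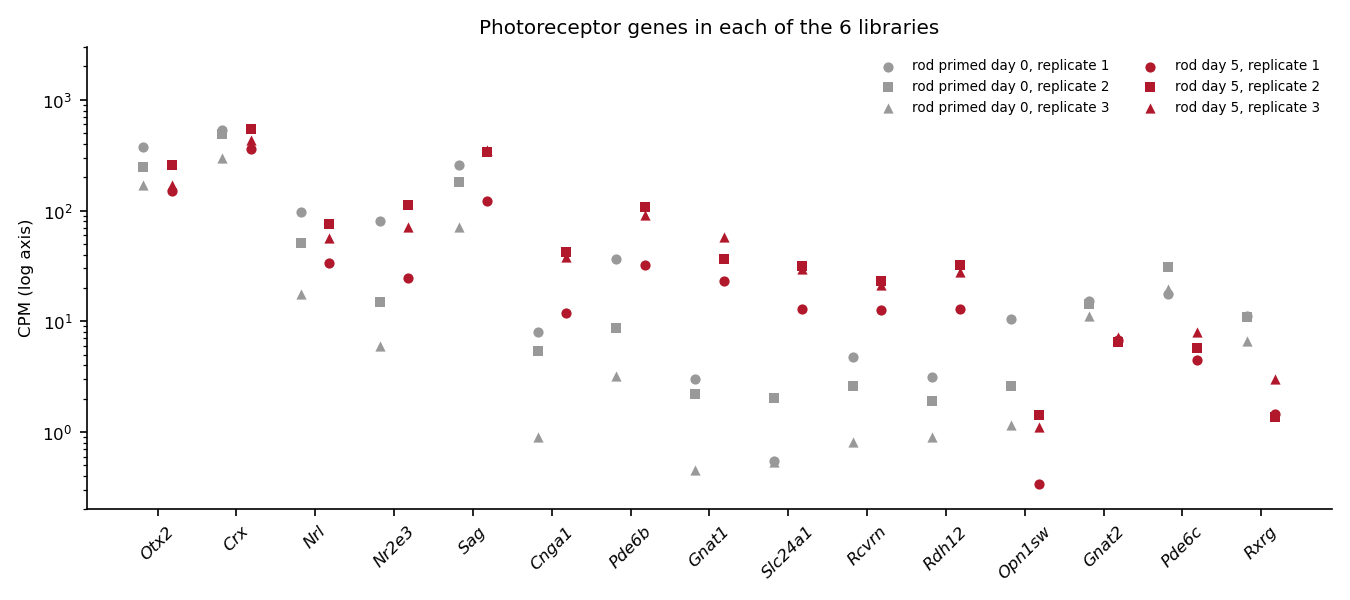
CPM on a log axis of 15 photoreceptor genes in each rod primed (grey) and rod day 5 (red) library, with the marker showing the replicate. Cnga1, Gnat1, Slc24a1, Rcvrn and Rdh12 separate with day 5 higher and Gnat2, Pde6c and Rxrg with day 5 lower, from counts, while Otx2, Crx and Nrl overlap.

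Promoters of Cnga1 and Sag, the latter encoding rod arrestin, are shown as 2 of the rod promoters with the letters TAATCC, a site bound by CRX and OTX2. Those letters were found in 50.0% of the 8 promoters matched among the rod phototransduction genes, in 14.3% of the 7 matched for cone genes and in 6.25% of all promoters. Sag stood at 259, 179 and 70.8 CPM and then 123, 337 and 350 CPM (0.67 ± 1.03, adjusted p 0.699). Capitals mark the site in chr5:72642753-72643002 (minus strand, printed in the direction of transcription) and chr1:87803430-87803679 (plus strand):
Cnga1: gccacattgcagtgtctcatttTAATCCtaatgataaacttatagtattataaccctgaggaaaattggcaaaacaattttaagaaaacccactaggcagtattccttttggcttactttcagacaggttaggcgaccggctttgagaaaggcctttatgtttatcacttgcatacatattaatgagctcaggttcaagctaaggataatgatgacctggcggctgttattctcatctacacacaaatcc
Sag: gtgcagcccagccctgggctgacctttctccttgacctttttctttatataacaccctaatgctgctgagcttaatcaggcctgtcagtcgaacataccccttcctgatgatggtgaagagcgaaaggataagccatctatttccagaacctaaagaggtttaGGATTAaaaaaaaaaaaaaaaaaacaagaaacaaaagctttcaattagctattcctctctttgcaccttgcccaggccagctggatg

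Genes of the other retinal neurons gave 1 to 5 calls in each list. Of 18 ganglion cell genes 1 was higher and 0 lower (median -0.47, or -0.02 without primed replicate 3). Pou4f2, the ganglion cell factor Brn3b, stood at 2.85, 2.72 and 9.07 CPM and then 1.91, 2.29 and 1.60 CPM (-1.35 ± 0.71, adjusted p 0.196), and the axon growth gene Gap43 overlapped between the groups (-0.54 ± 0.30, adjusted p 0.232). The rise was no longer called without any 1 of 5 libraries (all but primed replicate 3). Amacrine and horizontal cell genes gave 4 lower (21.05%, against 8.79% of all genes) and 1 higher of 19. The lower count was 1 without primed replicate 1 or 3 or day 5 replicate 1 or 2, and 2 without primed replicate 2. Prdm13, an amacrine factor, fell from 20.8, 18.9 and 18.2 CPM to 1.46, 3.93 and 3.61 CPM (-2.64 ± 0.52, adjusted p 8.65e-04), while Prox1, which also marks horizontal cells and progenitors leaving the cycle, rose from 113, 97.8 and 91.0 CPM to 175, 176 and 164 CPM (0.77 ± 0.15, adjusted p 5.05e-04). Of 12 bipolar genes 2 were higher (16.7%, against 8.76% of all genes). Prkca, protein kinase C alpha of rod bipolar cells, rose from 58.6, 56.6 and 47.5 CPM to 88.0, 88.2 and 95.3 CPM (0.74 ± 0.14, adjusted p 7.62e-04), and Grm6, the glutamate receptor of ON bipolar cells, had 0, 0 and 1 counts in primed libraries and 56, 23 and 90 at day 5 (adjusted p 0.00863).

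Genes of Muller glia, the radial glia of the retina that share much of their expression with late progenitors, gave 6 higher and 0 lower of 14 (median 0.45, or 0.75 without primed replicate 3). Kcnj10, their potassium channel, rose from 6.38, 3.63 and 3.14 CPM to 45.8, 39.7 and 43.5 CPM (3.33 ± 0.34, adjusted p 3.06e-07). Slc1a3, their glutamate transporter, rose from 176, 187 and 216 CPM to 507, 560 and 532 CPM (1.46 ± 0.21, adjusted p 2.31e-05). Sox9, a factor of progenitors and glia, rose from 32.5, 34.8 and 46.6 CPM to 82.9, 55.5 and 74.8 CPM (0.90 ± 0.20, adjusted p 0.00212). None of these groups overlapped, and Glul, the glutamine synthetase of mature Muller glia, was not called, at 205, 205 and 217 CPM and then 197, 181 and 190 CPM (-0.14 ± 0.18, adjusted p 0.640). Among 10 astrocyte genes 4 were higher, or 2 without primed replicate 3. Pax2, a factor of the optic stalk and of optic nerve astrocytes, rose from 5.02, 6.25 and 11.6 CPM to 59.2, 24.2 and 51.7 CPM (2.53 ± 0.38, adjusted p 4.29e-05). Gfap, the filament of reactive glia, had 0.136, 0 and 0.180 CPM and then 1.01, 1.14 and 1.60 CPM and was not called (adjusted p 0.0944), while at day 12 its mean was 56.2 CPM.

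Marker lists of cells from outside the neural retina differed in level and in how many members were called. Of 17 mesenchyme and matrix genes 3 were higher (17.65%, against 8.76% of all genes) and 0 lower. The summed level of the list was 111 to 231 CPM in primed cells and 288 to 523 CPM at day 5. Acta2, smooth muscle actin, had 1, 0 and 3 counts and then 112, 19 and 55 (adjusted p 9.86e-04), with day 5 replicate 1 the highest. Fn1, fibronectin, rose from 102, 87.8 and 105 CPM to 214, 260 and 481 CPM (1.69 ± 0.31, adjusted p 4.54e-04). Col1a1, the defining collagen of fibroblasts, stayed at or under 0.786 CPM in all 6 libraries and overlapped. Lens genes gave 3 higher of 8, at a summed 2.22 to 3.26 CPM and then 13.5 to 22.6 CPM. Cryab, a small heat shock protein of lens that glia also make, accounted for 0.678, 0.101 and 0.628 CPM and then 13.5, 8.87 and 7.29 CPM (4.38 ± 0.60, adjusted p 1.71e-05). Endothelium gave 0 of 7 called, or 1 higher without primed replicate 3. Its summed level was 280 to 315 CPM in the 6 libraries, of which Kdr, a receptor for vascular endothelial growth factor, took 272 to 307 CPM, while Cdh5 and Tie1 had 0 counts. Microglia gave 0 of 13, at a summed 2.12 to 8.89 CPM and then 4.43 to 19.4 CPM. Pigment epithelium gave 1 of 4, higher, and 0 without primed replicate 2. The part of such cells in the other results was not tested.

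BMP response genes, targets and modulators of a pathway that patterns the eye, gave 6 higher and 0 lower of 15 (median 1.00, or 1.91 without primed replicate 3). Bmp2, a ligand, rose from 5.70, 6.95 and 14.1 CPM to 35.5, 16.9 and 35.3 CPM (1.69 ± 0.33, adjusted p 6.63e-04). Id1, an immediate target that blocks basic helix-loop-helix factors, rose from 3.25, 2.82 and 8.35 CPM to 14.4, 9.01 and 16.0 CPM (1.42 ± 0.31, adjusted p 0.00228, or 2.11 without primed replicate 3). Smad9, a transducer, rose from 2.03, 0.806 and 2.96 CPM to 10.6, 5.50 and 10.5 CPM (2.17 ± 0.40, adjusted p 4.36e-04). These 3 were named from the called members, all of which rose, so their shared direction follows from that choice. In the list 12 changes were positive and 3 negative. None of the 3 named genes overlapped between the groups, and Bmp2 stood at 1.07 CPM in untreated cells. Of 16 immediate early genes, which respond within minutes to growth factors or handling, 7 were higher and 1 lower (median 0.92), with 4 higher without primed replicate 1 or 2. Egr1 rose from 14.9, 18.9 and 27.0 CPM to 106, 75.2 and 114 CPM (2.27 ± 0.21, adjusted p 5.57e-08), and Fos from 3.12, 12.7 and 16.0 CPM to 55.9, 37.4 and 69.0 CPM (2.31 ± 0.41, adjusted p 2.56e-04). FGF feedback genes gave 3 higher of 10, and dorsoventral patterning genes 0 of 12. Wnt response genes gave 2 higher of 11, and hedgehog response genes 2 higher and 1 lower of 9. Taurine and glycine receptor genes gave 2 higher and 1 lower of 8. The rises were 18.2%, 22.2% and 25% of members in that order, against 8.76% of all genes. The Wnt count was 0 without primed replicate 3, and 1 without primed replicate 1 or day 5 replicate 1 or 2. The hedgehog fall was lost without primed replicate 2 or 3 or day 5 replicate 2 or 3, and 1 rise was left without primed replicate 2. For the receptor genes 1 rise was left without primed replicate 1 or day 5 replicate 3.

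Energy metabolism did not move in 1 direction. Of 21 glycolysis and hypoxia genes 3 were higher and 2 lower, with 1 lower when any library but day 5 replicate 1 was left out. The median was -0.08, or 0.14 without primed replicate 1, and 0.70, 0.55 and 0.17 in TPM. Eno1, the glycolytic enolase, rose from 839, 657 and 888 CPM to 1650, 1322 and 1659 CPM (0.96 ± 0.18, adjusted p 5.29e-04), and Slc2a1, the main glucose transporter, fell from 341, 353 and 400 CPM to 220, 164 and 180 CPM (-0.96 ± 0.20, adjusted p 0.00136). Genes of the response to amino acid and endoplasmic reticulum stress gave 6 lower and 0 higher of 16 (median -0.50), with 3 lower without primed replicate 2 or day 5 replicate 2. Shmt2, the mitochondrial serine enzyme, fell from 53.6, 56.7 and 44.1 CPM to 29.1, 21.3 and 26.7 CPM (-1.0 ± 0.15, adjusted p 5.90e-05; positive in TPM). Of 13 protein genes of the mitochondrial genome 4 were higher, among them mt-Nd4, from 648, 612 and 538 CPM to 1100, 1643 and 916 CPM (1.02 ± 0.26, adjusted p 0.00788). Its highest level was in day 5 replicate 2, and without that library its call was lost (adjusted p 0.0826) and 0 of the 13 were called, against 2 without primed replicate 3. Interferon response genes gave 0 of 14, or 1 lower without day 5 replicate 3, and p53 response genes 1 lower of 12, or 3 without day 5 replicate 1.

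The largest rises included genes outside these lists. Myocd, a coactivator of serum response factor best known from heart and smooth muscle, showed the largest rise under the naming rule, from 0.678, 0.403 and 0.269 CPM to 14.6, 21.4 and 17.6 CPM (5.36 ± 0.38, adjusted p 1.31e-09). At day 12 its mean was 3.27 CPM and at day 21 it was 0.552 CPM. Ccn1 and Ccn2, secreted matrix proteins and targets of YAP, rose by 4.88 ± 0.45 and 3.92 ± 0.55, Ccn1 from 0.542, 0.504 and 0.718 CPM to 28.5, 11.1 and 14.6 CPM. Their means at day 12 were 212 and 178 CPM. Dio2, the enzyme that activates thyroid hormone, rose from 1.08, 0.705 and 0.808 CPM to 16.2, 19.5 and 16.4 CPM (4.34 ± 0.64, adjusted p 3.93e-05). Adamts16, a matrix protease, rose from 6.92, 4.03 and 9.07 CPM to 111, 72.7 and 124 CPM (3.93 ± 0.44, adjusted p 9.93e-07). Cxcl12, a chemokine, rose by 4.20 ± 0.47 (5.25 without primed replicate 3), A2m, a protease inhibitor, by 3.99 ± 0.52, F3, tissue factor, by 3.76 ± 0.39 (4.35 without primed replicate 3) and H60b, a ligand of natural killer cells, by 3.72 ± 0.43 (4.39 without primed replicate 3). Of the falls, Fndc3c1 was neither in a list nor a histone or small RNA gene, and went from 23.5, 34.3 and 38.4 CPM to 4.49, 3.07 and 3.33 CPM (-3.16 ± 0.59, adjusted p 4.94e-04).

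The same 5 days of cone culture gave 4056 called genes (22.3%), of which 2206 were higher (12.2% of genes tested) and 1850 lower (10.2%). Cone day 5 cells are labelled as induced with COCO protein. Of the genes called in rod culture 57.1% were also called in cone culture, and of those called in cone culture 44.8% were called in rod culture. Of the 1818 called in both, 1808 moved in the same direction. The 2 comparisons share no libraries, but they share a fitted spread. Among the lists, histones (49 of 58 lower) and ribosomal proteins (75 of 79 lower) fell in cone culture too. So did sterol and fatty acid (15 of 25 lower, 1 higher), DNA replication (15 of 26 lower) and mitosis genes (13 of 24 lower). Muller glia genes gave 8 of 14 higher in cone culture. Rod phototransduction gave 9 of 13 higher in cone culture (median 3.31) against 2 in rod culture (median 1.25), with 0 of the 13 differences called. Cone phototransduction genes fell in both, with 2 of 8 lower and 0 higher in each. Their median was -0.97 in cone culture and -1.14 in rod culture, and 0 of the 8 differences were called.

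The difference between the changes, tested as an interaction, was called for 102 genes (0.562%), 24 with the rod change above the cone change (0.132%) and 78 below (0.430%). Rarb and Dhrs3 were in the latter set. In cone culture, Rarb went from a mean of 0.614 to 5.80 CPM and Dhrs3 from 0.263 to 10.4 CPM, which in both cases stayed under the level of rod primed cells. The rod minus cone difference of the log2 changes was -3.20 for Rarb (adjusted p 2.01e-04) and -4.07 for Dhrs3 (adjusted p 0.00240). Pdlim3, a muscle linker protein, showed the largest difference under the naming rule (-5.64, adjusted p 3.45e-05). It stood at 54.0, 51.1 and 56.5 CPM in rod primed cells and 55.6, 40.7 and 62.8 CPM at rod day 5, while in cone culture its mean went from 0.734 to 35.3 CPM and in untreated cells it was 0.377 CPM.

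Loxl2, a collagen cross-linking enzyme, Thbs1, thrombospondin 1, and Cavin1, of caveolae, rose in cone culture to means of 30.9, 71.1 and 19.4 CPM against 4.57, 8.84 and 2.71 CPM at rod day 5. H2-K1, a class I histocompatibility gene, went from a mean of 0.707 to 5.96 CPM in cone culture and from 2.85, 2.62 and 2.78 CPM to 1.35, 1.07 and 1.94 CPM in rod culture. Of the sterol and fatty acid genes 6 were called, all with the rod change below the cone change, among them Scd1, Scd2, Msmo1, Lss and Insig1. In each of these the rod primed mean was above the cone primed mean, as with Scd2, an oleic acid forming enzyme of brain, at 854 and 542 CPM. Glycolysis genes gave 16 of 21 higher in cone culture, against 3 in rod culture, and 3 of the differences were called. Hk2, hexokinase 2, stood at 4.21, 3.02 and 3.23 CPM and then 3.48, 1.79 and 2.92 CPM in rod culture and went from a mean of 3.50 to 27.4 CPM in cone culture (difference -3.34, adjusted p 2.01e-04). Pgk1, phosphoglycerate kinase, and Pdk1, which diverts pyruvate from mitochondria, were the other two. The cyclins also differed, with -2.42 for Ccnd2 and -1.41 for Ccnd1. When each of the 12 libraries was left out in turn, the differences of Rarb, Dhrs3, Pdlim3, Loxl2, H2-K1, Scd1 and Hk2 stayed called. That of Dhrs3 was not called with voom (-3.66, adjusted p 0.0679). That of Ccnd2 was lost without rod primed replicate 3, rod day 5 replicate 2 or cone primed replicate 3 (adjusted p up to 0.0601). The others were lost without several libraries each, up to 10 of 12 for Lss and Pdk1, with adjusted p up to 0.172 for Cavin1, 0.141 for Thbs1 and 0.129 for Ccnd1.

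In the other direction, Shisa9, an auxiliary protein of glutamate receptors, rose in rod culture from 7.87, 8.77 and 14.3 CPM to 41.3, 41.4 and 30.5 CPM (1.86 ± 0.23, adjusted p 5.41e-06), and its mean in cone culture went from 20.5 to 17.7 CPM (difference 2.07, adjusted p 0.00157). Cntnap2, a neuronal adhesion protein, rose from 30.1, 22.4 and 30.2 CPM to 78.1, 60.9 and 69.4 CPM (1.33 ± 0.22, adjusted p 1.55e-04), against means of 70.6 and 59.6 CPM in cone culture. Day 5 rod cells thus stood near the untreated level of 68.7 CPM. The difference of Shisa9 stayed called when each library was left out, and that of Cntnap2 was lost without rod primed replicate 2 (adjusted p 0.0542). Gabrg3, Cpne8, Gfra1 and Podn completed the 6 largest differences of this kind, and each was lost without at least 7 of the 12 libraries. Podn, a matrix proteoglycan, stood at a mean of 2.15 CPM in rod primed cells and 2.83 CPM at rod day 5, and went from 18.2 to 3.53 CPM in cone culture.

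**Figure D5:**
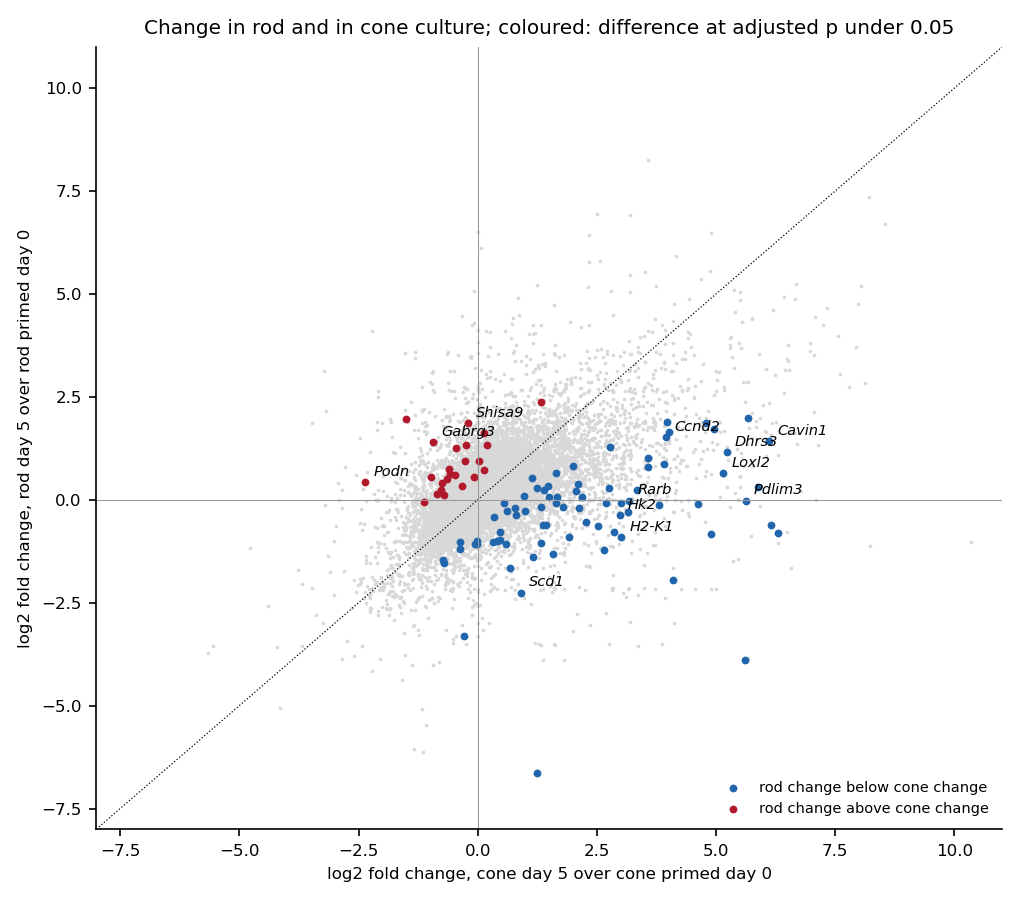
Log2 fold change over 5 days in rod culture (vertical axis) against that in cone culture (horizontal axis) for the 18150 genes tested, with the 102 genes whose difference was called in colour and the dotted line marking equal change. Of these, 78 lie below the line (blue) and 24 above it (red).

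Sox15, the gene named in the title of the series, was near the limit of detection. It had 5, 3 and 1 counts in primed libraries and 2, 11 and 3 at day 5, or 0.678, 0.302 and 0.0898 CPM and then 0.225, 0.786 and 0.208 CPM (0.33 ± 0.80, adjusted p 0.815). The groups overlapped, and the change did not pass the test.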

How the data were processed

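RNA of the 33 libraries was extracted and made into libraries with kits for low input, per the labels' protocols. The submitters' processing notes name HISAT2, StringTie, HTSeq and the mouse build GRCm38, without versions; the settings for strand and for reads that fit several places are not given in the sources used here. The authors deposited raw read counts per gene, and tables with TPM, FPKM and coverage signal per gene, of which the TPM were used as an alternative and the FPKM and coverage were not used. Positions follow the deposited tables, and 47310 of the 47729 genes were found in GENCODE M21.

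The 5 summary lines of each count table were left out. Reads in genes were 28.0% to 34.7% of all reads in the 6 libraries, and 20432 to 22327 genes had a count. All 33 libraries in 11 groups were fitted together with edgeR 4.0.16 (R 4.3.3; TMM scaling, filterByExpr with a minimum count of 10, quasi-likelihood test, Benjamini-Hochberg adjustment over all 18150 genes tested), with group as the only term, so that all groups shared one estimate of the spread. The difference between the rod and cone changes was an interaction contrast of the same fit. A prior count of 2 was used for log2 CPM, in the principal components, the check of pairing and the naming rule. Fold changes kept the smaller default of edgeR, so those from few counts are little shrunken. The tests were also run on simulated counts with known changes at rod day 5, drawn with the fitted spread. Such counts cannot show whether a shared spread suits all groups. Replicates of a group differed by more than sampling noise (chi-square per degree of freedom 7.8 to 46.7), so each was counted. Alternatives were limma 3.58.1 (voom, and log2 TPM with 0.1 or 1 added), DESeq2 1.42.0, other scaling and filters, the 6 or 12 compared libraries alone, a replicate term, the counts without 7 ribosomal RNA-like and the mitochondrial genes, each library left out in turn, and rescaled TPM, the last chosen after seeing the data.

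The libraries compared and the 37 gene lists were chosen with earlier results of these data known. Named genes were a list of 30 chosen for the question, the 12 largest rises and 12 largest falls among called genes with a mean of at least 1 log2 CPM and no overlap between the groups (unnamed gene models passed over), up to 3 called members highest and lowest in each list, and the 6 largest differences from cone culture each way. Hmgcs1, Insig1, Sqle, Lss, Msmo1, Scd2, Pgk1, Hk2, Pdk1, Sox9, Olig2, Hes6, Sox11, Sox4, Dll1, Hes1, Sag, Cnga1, Pde6b, Rplp0 and Kdr were chosen after their values were seen. Intervals from 0 counts cover counting error only. A few of these genes are left out of the text. Promoter sequences are from RefSeq (GRCm38.p6).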

Additional observations from a re-analysis of the deposited data

Results flagged for a closer look

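The change over 5 days differed between rod and cone culture, by the interaction test (edgeR, adjusted p under 0.05), for 102 genes, of which 24 are named here. The cone change was the more positive, in log2 units of rod minus cone, for Pdlim3 (-5.64), Cavin1 (-4.69), Loxl2 (-4.50), Dhrs3 (-4.07), H2-K1 (-3.91), Thbs1 (-3.67), Hk2 (-3.34), Rarb (-3.20), Scd1 (-3.15), Ccnd2 (-2.42), Pdk1 (-1.86), Ccnd1 (-1.41), Pgk1 (-1.18), Scd2 (-1.06), Shmt2 (-0.99), Msmo1 (-0.85), Lss (-0.81) and Insig1 (-0.74). The rod change was the more positive for Podn (2.78), Gabrg3 (2.34), Shisa9 (2.07), Cpne8 (1.71), Cntnap2 (1.58) and Gfra1 (1.54).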

How the results depend on the processing

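In counts, the number of genes called from primed day 0 to day 5 (3185) became 4896 with voom and 1950 to 2570 when each library was left out, lowest without day 5 replicate 2. The difference between rod and cone culture (102 genes) became 270 with DESeq2, 387 with voom, 295 in the fit of the 12 compared libraries and 41 to 87 when each library was left out, lowest without cone day 5 replicate 1. Its share with the rod change above the cone change was 23.5%, against 38.8% with voom, 37.3% in the 12 libraries alone, 17.4% to 23.0% in the other alternatives that kept all libraries, and 11.5% (without cone day 5 replicate 2) to 28.0% (without rod day 5 replicate 2) when each library was left out. Replicate numbers did not pair the libraries (correlations of same-numbered deviations -0.364, 0.0745 and -0.0977), and with a replicate block 3196 and 113 genes were called.

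In TPM 647 genes were called with 0.1 added (609 higher), 831 with 1 added (783 higher) and 290 after rescaling (238 higher), where the median of all genes was 0.36, 0.13 and 0.00. Changes turned positive, in that order, for Ccnd1 (0.87, 0.82, 0.33), Sall3 (0.69, 0.13, 0.42), Shmt2 (0.61, 0.29, 0.14), Sqle (1.21, 1.02, 0.67) and Olig2 (0.81, 0.28, 0.51), and in the fits before rescaling for Rax (0.34, 0.27), Sox4 (0.35, 0.30) and Idi1 (0.18, 0.046). With 1 added they turned positive for Hes6 (0.084), Sox11 (0.022) and Neurog2 (1.21). In TPM mt-Nd6 alone stood at 4984 to 30260 in the 6 libraries and the 12 other mitochondrial protein genes together at 1315 to 7835, while in counts mt-Nd6 stood at 81.9 to 244 CPM and the others at 7942 to 19030 CPM. The cause was not tested. Of the 82 named genes called, 69 kept their call and direction in every count-based alternative and 13 lost it without at least 1 library. Genes near 3 counts, such as Sox15, have the least precise values.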
